A study of Mus musculus with 3 samples.

Results

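Ribosome footprints of harringtonine-treated mouse cortical neurons (Harr) were compared with those of untreated neurons (WT). The question was in which classes of genes reads over the 5′UTR were raised most and least in Harr. The genes were chosen by read number alone. Of 20823 genes whose longest transcript had a 5′UTR, a coding sequence (CDS) and a 3′UTR, the 10384 genes (49.9%) with at least 10 5′UTR reads in both libraries together were used. A further 7558 genes had no 5′UTR read in either library. At the edge of this minimum, the 146 genes with exactly 10 reads had a median of 6 reads in Harr and 4 in WT, and the 163 genes with 9 reads, which were left out, had medians of 6 and 3.

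Both libraries were made from primary cortical cultures grown in Neurobasal medium with B27, the cortex being that of CD-1 mouse embryos, and 3 dishes were pooled for each library. Harr neurons were exposed to harringtonine for 2 min, with cycloheximide added as a pulse at the end, whereas WT neurons received no drug before lysis. The buffers used to rinse and lyse the cells of both groups held cycloheximide at 100 μg per ml. The series holds 3 libraries, 1 for each treatment, and the library of neurons treated with cycloheximide alone was not used here. The groups were taken from the treatment labels, which match the sample titles, while the free-text descriptions of the samples name fractions of another experiment. With 1 library on each side there is no replicate check, no p-value is given, and every difference describes these 2 libraries. Because the Harr dishes also received a cycloheximide pulse, the effects of both drugs and of the dishes cannot be told apart.

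Harringtonine binds ribosomes that have just joined a start codon and holds them there, while ribosomes that have already begun to elongate finish the protein and leave. Cycloheximide stops elongating ribosomes wherever they are. An mRNA with an upstream open reading frame (uORF), that is, an ATG in the 5′UTR followed by a stop codon, carries ribosomes in its 5′UTR without any drug, and such frames are best known for the control of stress-response mRNAs such as those of Atf4 and Ddit3. In the deposited tables each read was placed by its first base, so a ribosome that sits on the annotated start codon is counted in the 5′UTR, together with ribosomes on upstream ATGs.

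The aligned libraries held 9754412 reads in Harr and 30219197 in WT. For the genes used, 2022643 Harr reads and 1112358 WT reads fell in 5′UTRs, with a median of 64 reads per gene in Harr and 33 in WT. Neuronal transcripts prevailed in both libraries. The 8 neuronal markers together had 3999 CDS reads per 1000000 library reads in Harr and 5752 in WT, 4 astrocyte markers had 78.8 and 213, 4 microglial markers had 1.44 and 2.68, and 4 oligodendrocyte markers had 2.15 and 5.72. Mog and Mobp, which mark mature oligodendrocytes, were at 0 in both libraries, and the microglial genes Cx3cr1 and P2ry12 were at 0 in Harr.

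The 5′UTR gain of a gene was the log2 ratio of its 5′UTR reads per 1000000 library reads in Harr over WT, with 0.5 added to each count. Its median over the 10384 genes was 2.59, a 6.03-fold higher level in Harr. Reads in the 5′UTR were higher in Harr for 10250 genes (98.7%), and 92.6% of the genes had a gain of at least 1 with a 95% counting interval above 0. CDS reads moved the other way, with a median change of -0.54. The median change of 3′UTR reads was 1.87 among genes with at least 10 of them. The size of the median gain depends on the scaling of the libraries, and it was 1.79 when mitochondrially encoded CDS reads were set equal and 3.14 when the median CDS ratio was set to 1. Differences between genes, and so the matched gains and the strong and weak calls defined below, are the same under any such scaling, whereas levels and counts of genes higher or lower in Harr are not. Under those scalings 76.6% and 96.7% of the genes had a gain of at least 1 with an interval above 0.

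The gain fell along 5′UTR length. In the shortest of 10 length classes, with 5′UTRs of 2 to 65 nucleotides, the median gain was 2.90 (95% interval of the median over genes 2.81 to 2.96). It was 2.74 for 5′UTRs of 179 to 221 nucleotides and 1.94 (1.89 to 2.00) in the longest class, from 575 nucleotides upwards, where the median fold was 3.84. The medians in 5 classes of read number lay between 2.52 and 2.66. Intervals of this kind describe the spread over genes and are not replicate errors.

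**Figure D1:**
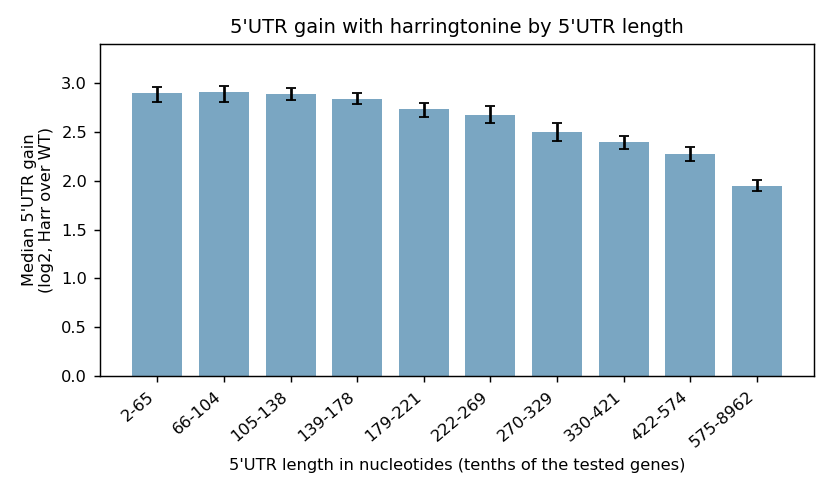
Bars give the median 5′UTR gain (vertical axis, log2 of Harr over WT reads per 1000000) in 10 classes of the 10384 genes by 5′UTR length (horizontal axis, nucleotides), and error bars the 95% interval of the median over genes. The first 3 bars stand near 2.9, and the last, for 5′UTRs of at least 575 nucleotides, stands at 1.94.

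Genes were therefore compared at matched length and read number. The genes were split into 10 classes by 5′UTR length and each of these into 5 classes by 5′UTR reads, and the median gain of the resulting 50 groups of 195 to 213 genes was subtracted from each gene's gain to give its matched gain. A gene was called strong when its matched gain was at least 1, that is, 2-fold above genes of like length and read number, with a counting interval above 0, and weak when it was at most -1 with an interval below 0. By this rule 1008 genes (9.71%) were strong and 1305 genes (12.6%) were weak. The standard deviation of the matched gain was 1.02 over genes, and the median counting error of a single gene was 0.32.

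Among genes with at least 100 reads, no overlap with a CDS and few shared sequences, the strongest and weakest show the range. Rab11fip5, a Rab11 effector, had 7 reads in WT and 166 in Harr, a matched gain of 3.17. Macf1, which links microtubules to actin, had 9 and 201 reads (3.13), and Micu3, a regulator of mitochondrial calcium uptake, had 14 and 149 reads (3.10). Rhbdd2 followed with 5 and 108 reads (2.91) and Cyfip2, a member of the WAVE complex and a partner of the fragile X protein, with 40 and 471 reads (2.89). In all 5 the Harr count was higher although the Harr library was the smaller.

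At the other end, Trub2, a pseudouridine synthase, had 181 reads in WT and only 38 in Harr, a matched gain of -3.52, or -2.36 on the transcript with the most reads. Fxr2, a paralogue of the fragile X protein, had 265 and 45 reads (-3.49). The lipoprotein receptor gene Scarb1 had 151 and 38 reads (-3.24), the lipid kinase gene Pi4ka 181 and 45 reads (-2.94), and Tmem132a 250 and 96 reads (-2.79). Per 1000000 library reads, the 5′UTR level of Trub2 was 5.99 in WT and 3.90 in Harr, and that of Fxr2 was 8.77 and 4.61. A gain whose interval lay below 0 was found for 37 genes of 10384 when scaled by library totals, for 16 by the median CDS ratio and for 118 by mitochondrially encoded reads. In 29 of the 37 the 5′UTR shared bases with an annotated CDS, as it did in 725 of all genes, and those 725 genes were weak in 32.6% of cases against 11.1% of the others.

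The bases around the annotated start codons of these 10 genes are shown because a ribosome held there adds its read to the 5′UTR just before this position. Each line gives 12 bases before and 12 from the start codon, 5′ to 3′ in the GENCODE M21 transcript, with the start codon in capitals. The strong genes come first, then the weak ones.
Rab11fip5: ccagggtccgccATGgctctggtg
Macf1: cttgcttggaccATGtcttcctct
Micu3: gcagctcccgctATGgctgcgctg
Rhbdd2: gggctcgcggccATGgcggccccg
Cyfip2: ggcgccgcagccATGaccacccac
Trub2: tgagttccagccATGggttcttct
Fxr2: ggtggcggcgccATGggcggcctg
Scarb1: gcgcacgcggacATGggcggcagc
Pi4ka: aagctgctttgcATGtgcccagta
Tmem132a: gagtgcgcctcgATGactgaacgc
The third base before the start codon, at which A or G favours initiation, is A in Macf1 and G in the other strong genes, while among the weak genes it is G in Trub2, Fxr2 and Scarb1 and T in Pi4ka and Tmem132a. Of the strong genes Rab11fip5 and Rhbdd2 have no ATG in the 5′UTR, Macf1 has 1, Micu3 has 3 and Cyfip2 has 4. Of the weak genes Fxr2 has none, Trub2 has 2 and the others have 1 each. The upstream ATG of Pi4ka is in frame with the annotated CDS, with no stop codon between them. In the mm10 genome the 5′UTR of Rab11fip5 lies at chr6:85374529-85374634, that of Macf1 at chr4:123684190-123684360 and that of Cyfip2 at chr11:46291630-46312358, all on the minus strand, and those of Micu3 (chr8:40307458-40308050) and Rhbdd2 (chr5:135632654-135632740) are on the plus strand. Those of Trub2 (chr2:29787612-29787660), Scarb1 (chr5:125340883-125341094), Pi4ka (chr16:17389440-17405893) and Tmem132a (chr19:10869627-10869778) are on the minus strand, and that of Fxr2 (chr11:69632990-69633317) is on the plus strand.

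Upstream ATGs were counted in the 9630 genes whose 5′UTR sequence was known and overlapped no CDS. The 4200 genes with no ATG in the 5′UTR had a median matched gain of 0.30 (95% interval over genes 0.27 to 0.34), and 14.6% of them were strong and 6.19% weak. With 1 upstream ATG (2175 genes) the median was -0.06, with 2 it was -0.23, with 3 it was -0.31 and with 4 it was -0.30. Among the 479 genes with 4 upstream ATGs, 4.38% were strong and 20.5% were weak. The order did not continue beyond this, as the medians were -0.14 for 5 and -0.28 for 6 or more. Seen from the other side, 806 of 1066 weak genes (75.6%) had an upstream ATG, against 56.4% of all 9630 genes, and 613 of 966 strong genes (63.5%) had none, against 43.6%.

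**Figure D2:**
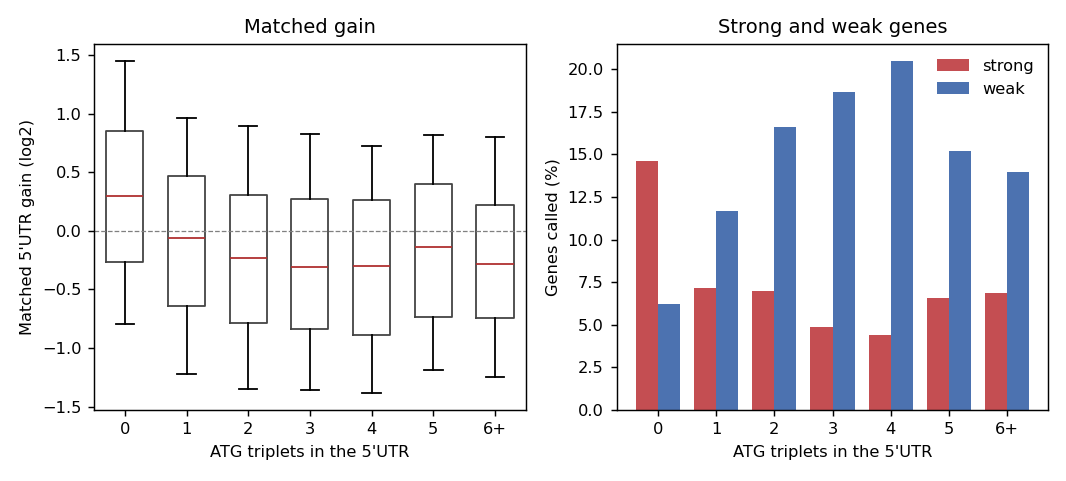
Left, the matched 5′UTR gain (log2) of genes by the number of ATG triplets in the 5′UTR, with boxes for the quartiles, red lines for the medians and whiskers for the 10th and 90th percentiles. Right, the percentage of genes called strong (red) and weak (blue) in the same classes, which changes from 14.6% strong and 6.19% weak without an upstream ATG to 4.38% and 20.5% with 4.

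The difference was found in each of 3 length classes. For 5′UTRs of 2 to 146 nucleotides, the median matched gain was 0.16 without an upstream ATG (2444 genes) and -0.48 with 1 or more (767 genes). For 147 to 299 nucleotides it was 0.39 and -0.27, and from 300 nucleotides upwards 0.63 (405 genes) and -0.04 (2797 genes). Of the 405 long 5′UTRs without an ATG, 24.4% were strong and 0.74% weak, against 10.03% and 11.07% of all 9630 genes. The unmatched gain of genes without an upstream ATG did not fall with length, at 3.04, 3.13 and 3.06 in the 3 length classes.

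The context and the end of the upstream frame were compared where a 5′UTR held a single ATG. An ATG with A or G at the third base before it and G after it, the context that ribosomes use best, was found in 420 genes, whose median matched gain was -0.30 (-0.39 to -0.20), with 19.8% weak. The 1755 genes with a single ATG in another context had a median of 0.00 (-0.05 to 0.05), with 9.74% weak. Of all 9630 genes 11.1% were weak. Where the single frame ran out of frame into the CDS the median was -0.13 (551 genes), and where it ended inside the 5′UTR it was -0.04 (1586 genes), and these intervals, -0.19 to -0.04 and -0.08 to 0.02, overlap.

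Genes whose uORFs are known to regulate translation held a larger share of weak genes than the whole, though the interval of their median included 0. All 25 genes of this list were used, with a median matched gain of -0.45 (-1.01 to 0.14), and 8 of them (32.0%) were weak and 2 were strong, against 12.6% and 9.71% over all genes. Of the 25 genes, 5 have no ATG in the 5′UTR of the transcript used, among them Oaz1, which is controlled by frameshifting rather than by a uORF. The median was -0.55 for the 20 genes that have an upstream ATG. It was -0.12 (-0.83 to 0.60) without the 4 genes whose 5′UTR overlaps a CDS, and -0.18 when genes were also matched on having an upstream ATG. Upstream ATGs of Atf4 and Atf5, transcription factors of the integrated stress response, and of Ifrd1 and Amd1 are shown because the reads of these genes are described next. Each line gives up to 12 bases before and 12 from an upstream ATG, 5′ to 3′ from the GENCODE M21 transcript, with the ATG in capitals and its position counted from 1 at the 5′ end.
Atf4, upstream ATG at base 120: cacttttctctcATGgggccttta
Atf4, upstream ATG at base 399: cttgcggccaccATGgcgtattag
Atf4, upstream ATG at base 498: ccggcctaagccATGgcgctcttc
Atf5, upstream ATG at base 122: tccgcccgcgcaATGgctctgtag
Atf5, upstream ATG at base 253: cttttcgccgccATGgagtcctcc
Ifrd1, upstream ATG at base 32: ctagagagaaacATGtatcgtttc
Amd1, upstream ATG at base 12: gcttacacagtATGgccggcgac
The frame at base 120 of Atf4 has 36 codons and ends in the 5′UTR. The frame at base 399 of Atf4 and that at base 122 of Atf5 are 3 codons long before the stop codon. The frame at base 498 of Atf4 (59 codons) and that at base 253 of Atf5 (58 codons) run out of frame into the CDS. The frame of Ifrd1 has 52 codons and that of Amd1 6 codons, and both end in the 5′UTR. The 5′UTR of Atf4 spans chr15:80255184-80256298 on the plus strand in mm10, and those of Atf5 (chr7:44815167-44816658), Ifrd1 (chr12:40222957-40223189) and Amd1 (chr10:40301859-40302186) are on the minus strand.

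Atf5 had 1626 5′UTR reads in WT and 471 in Harr, which is 53.8 and 48.3 per 1000000 library reads, and a matched gain of -2.72 (counting interval -2.86 to -2.57). Already in WT, 57.7% of the reads of Atf5 lay in its 5′UTR (Wilson 95% interval 55.9 to 59.5), and in Harr 85.3% (82.1 to 88.0). Scaled by library totals, its gain was -0.16 (-0.30 to -0.01) and its CDS change -2.26, with 1192 CDS reads in WT and 80 in Harr. Ifrd1, a transcriptional coregulator, had 1398 reads in WT and 770 in Harr, a matched gain of -2.07, and Atf4 had 1901 and 1217 reads, a matched gain of -1.01. In WT the 5′UTR held 51.4% of the reads of Ifrd1 (49.5 to 53.3) and 34.7% of those of Atf4 (33.4 to 35.9). Ddit3 (CHOP), with 316 reads in either library, had a matched gain of -1.24, but its 5′UTR overlaps a CDS. Azin1, an activator of polyamine synthesis, had 3190 and 2408 reads and a matched gain of -0.77.

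The list was not uniform. Ppp1r15a (GADD34), the phosphatase subunit that reverses the integrated stress response, had 611 reads in WT and 867 in Harr, and its matched gain of 0.14 had an interval from -0.01 to 0.29, or was -0.66 on the transcript with the most reads. Slc7a1, a transporter of cationic amino acids, had 259 and 944 reads (0.69). The 2 strong genes were Odc1, which makes putrescine, with 61 and 397 reads (2.05), and Eprs, a tRNA synthetase, with 30 and 149 reads (1.02). Odc1 shares 55.7% of its 25-nucleotide words with other genes, so its reads may come from copies, and Eprs has no upstream ATG. Amd1 had 4 reads in WT and 16 in Harr and shares 93.8% of its words, and its interval of -0.32 to 2.69 leaves its side undetermined.

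The 23 genes whose uORFs the study names had the lowest median of the 36 classes, -0.85 (-1.23 to -0.36), with 10 weak (43.5%) and none strong, against 12.6% and 9.71% of all genes. This list came from the study's ribosome profiling and is not independent evidence. The median was -0.42 (-1.18 to 0.85) over the 11 genes with at least 100 reads, and relative to CDS reads it was -0.91 (-1.77 to 0.11). All 23 have an upstream ATG. In WT a median of 22% of their reads lay in the 5′UTR, against 6.03% over all genes, and in Harr 58.9% against 38%. Cnep1r1, a regulatory subunit of a nuclear envelope phosphatase, was weak with 33 reads in WT and 16 in Harr (-2.28). Gria2, the AMPA receptor subunit that limits calcium entry, had 1146 and 2342 reads (0.14, interval 0.04 to 0.24), and its matched gain ranged from 0 among genes with at least 100 reads to 0.60 (0.48 to 0.73) relative to CDS reads. Apaf1, the scaffold of the apoptosome, had 118 and 240 reads and lay above it (0.72, interval 0.40 to 1.04).

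Target genes of ATF4 held a larger share of strong genes than the whole, though the interval of their median included 0. Of these 22 genes, which supply amino acids and buffer stress, 6 were strong (27.3%) and none weak, against 9.71% and 12.6% of all genes, with a median matched gain of 0.38 (-0.08 to 1.23). Relative to CDS reads the class median was 0.10 (-0.41 to 0.67), and it was 0.26 (-0.14 to 1.14) when also matched on having an upstream ATG. The cationic amino acid transporter gene Slc7a3 had 130 reads in WT and 524 in Harr (1.71, or 0.87 on the transcript with the most reads). Cebpg, a partner of ATF4, had 39 and 225 reads (1.56, or 0.33 relative to CDS reads), the amino acid transporter gene Slc7a5 had 34 and 199 (1.25), and Mthfd2 of mitochondrial one-carbon metabolism had 34 and 195 (1.23). Asns, asparagine synthetase, had 270 and 413 reads (-0.63), but its matched gain was 0.37 (0.23 to 0.51) on the transcript with the most reads. All 22 genes had a gain of at least 1 with an interval above 0, where 92.6% of all genes did. Above the matched level lay 16 of the 22, and 5161 of all 10384 genes.

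**Figure D3:**
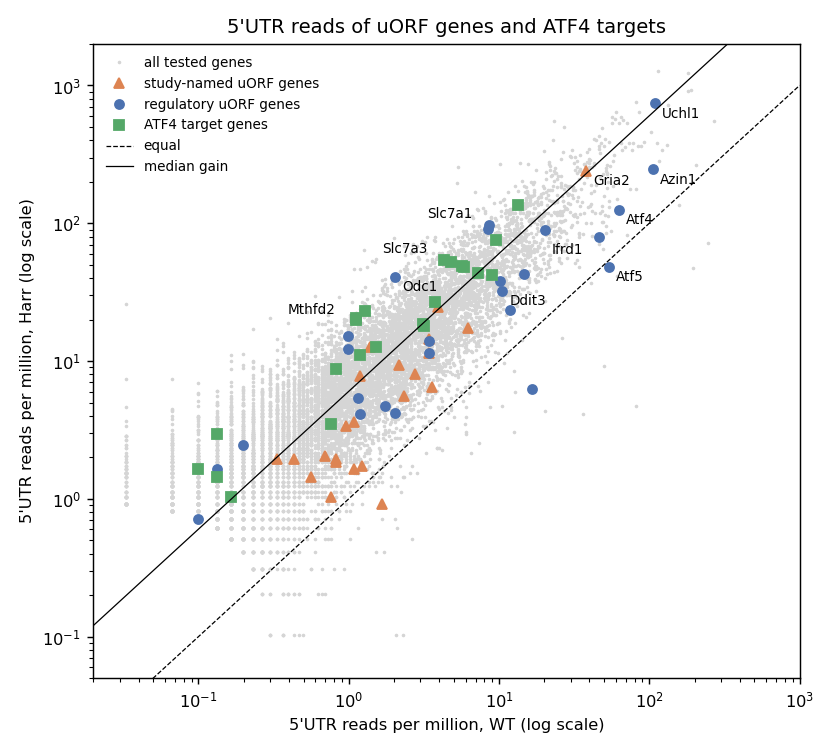
5′UTR reads per 1000000 library reads in WT (horizontal, log scale) and Harr (vertical, log scale) for all genes used (grey dots), the 25 genes with regulatory uORFs (blue circles), the 23 genes of the study's list (orange triangles) and 22 ATF4 targets (green squares), with the line of equal levels (dashed) and that of the median gain (solid). Genes at 0 in a library (3 in Harr, 38 in WT) cannot be drawn, and Atf5 lies near the dashed line while Slc7a3, Mthfd2 and Odc1 lie above the solid one.

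Immediate early genes, which neurons transcribe within minutes of activity, had the highest median of all classes, 0.57 (0.11 to 0.96, 24 of 25 genes used), and 5 of 24 (20.8%) were strong and 2 (8.33%) weak, against 9.71% and 12.6% of all genes. The transcription factor genes Egr1, with 75 reads in WT and 352 in Harr (1.92), and Egr2, with 11 and 69 (1.85), led the class. Npas4, which is specific to neurons, had 45 and 179 reads (1.43), Jun 343 and 1044 (1.24) and Fosb 296 and 766 (1.00). Fos, with 312 and 1194 reads (0.52), and Bdnf, with 703 and 1365 (0.59), were above the matched level without being strong. Arc had 14 and 40 reads, and its matched gain of 0.55 had an interval of -0.32 to 1.41. Egr3 was weak, with 55 and 60 reads (-1.18), but was at -0.26 (-0.69 to 0.17) on the transcript with the most reads. Nr4a1 was weak on its longest transcript, with 77 and 54 reads (-1.59), but its matched gain was 3.03 on the transcript with the most reads, so its side rests on the transcript chosen. CDS reads of the class did not decrease as those of most genes did, with a median change of 0.04 against -0.54. Set against its own CDS reads, the matched gain of the class was -0.31 (-0.68 to 0.27). Below 0 on this measure were Egr2 at -0.020, Fosb at -0.16, Jun at -0.47, Fos at -0.38, Arc at -0.51 and Bdnf at -1.12. Other members of the class lay above 0. When matched on having an upstream ATG, the class median was 0.32 (0.014 to 0.63) and Fosb was at -0.061. With coarser classes of length and read number the interval of the class, -0.013 to 0.86, included 0.

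Chaperones were also on the strong side, with a median of 0.34 (0.13 to 0.49) over 63 of 79 genes, 9 strong (14.3%) and 2 weak (3.17%), against 9.71% and 12.6% of all genes. All 63 had a gain of at least 1 with an interval above 0, as did 92.6% of all genes. When also matched on having an upstream ATG the class median was 0.21 (0.0019 to 0.35). Dnajc3, an endoplasmic reticulum J protein that also restrains the kinase PERK, had 10 reads in WT and 141 in Harr (2.45), and Dnaja3 of mitochondria had 12 and 103 (1.76). Hsp90ab1, the main cytosolic HSP90, had 81 and 688 reads (1.79) and shares 26.5% of its words with other genes. Hspa5 (BiP), the HSP70 of the endoplasmic reticulum, had 929 and 3293 reads (0.65). The chaperonin that folds actin and tubulin had 6 of its 7 subunits used above the matched level, with Cct2 at 65 and 313 reads (0.97), Cct8 at 267 and 1071 (0.72), Tcp1 at 353 and 1202 (0.53), Cct4 at 237 and 786 (0.51), Cct5 at 485 and 1447 (0.30) and Cct7 at 53 and 74 (0.21, interval -0.30 to 0.72). Cct3 lay below with 460 and 874 reads (-0.36). Of all 10384 genes used, 5161 lay above the matched level. The weak members, Dnajc27 (53 and 40 reads, -1.49) and Dnajc18 (47 and 49 reads, -1.23), are J proteins. Among chaperones 65.1% of 5′UTRs held no ATG, against 41.7% over all genes, and the median matched gain was 0.39 for the 41 genes without an ATG and -0.07 for the 22 with one, where the same medians over all genes were 0.30 and -0.21.

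For voltage-gated ion channels the median matched gain was -0.23 (-0.54 to -0.08) over 86 of 136 genes, with 18 weak (20.9%) and 4 strong (4.65%), against 12.6% and 9.71% of all genes. Kcnq3, a subunit of the M current, had 74 reads in WT and 36 in Harr (-1.79), and Scn2b, an auxiliary sodium channel subunit, had 229 and 157 (-1.76). Kcna6 of the Shaker family lay above, with 334 and 819 reads (0.93), but at -0.14 when also matched on having an upstream ATG. Only 16.5% of the channel 5′UTRs held no ATG, and the 14 such genes had a median of 0.55 (-0.26 to 1.63) with 4 strong and 1 weak, while the 71 with an ATG had -0.38 (-0.66 to -0.17) with none strong and 17 weak. Over all genes, 626 of 4317 without an upstream ATG were strong and 275 weak, against 379 and 1026 of 6034 with one. With at least 100 reads per gene the class median was -0.074 (-0.43 to 0.19, 40 genes), so the interval then included 0.

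Receptors for glutamate and GABA had a similar median, -0.24, with an interval of -0.91 to 0.14 over 37 of 47 genes, 8 weak (21.6%) and 1 strong (2.70%), against 12.6% and 9.71% of all genes. Over the 30 genes with at least 100 reads the median was 0.028 (-0.78 to 0.21). Within the class the subunits differed. The AMPA receptor genes were spread, with Gria1 weak at 782 reads in WT and 502 in Harr (-1.85), Gria4 at 250 and 262 (-0.58), Gria3 at 65 and 145 (0.08) and Gria2 as given above. Of the NMDA receptor genes, the obligatory subunit Grin1 had 272 and 997 reads (0.63), whereas Grin2b, with 1089 and 809 reads (-0.80), Grin2a, with 79 and 65 (-1.13), and Grin3a, with 118 and 92 (-0.91), lay below the matched level. The kainate receptor genes Grik1, with 535 and 313 reads (-1.66), and Grik2, with 475 and 440 (-1.0), lay low as well. The metabotropic genes Grm7, with 69 and 313 reads (1.22), and Grm2, with 32 and 147 (0.92), were the highest of the class with at least 100 reads, though Grm7 was at 0.05 (-0.41 to 0.51) relative to CDS reads, while Grm5 had 826 and 689 (-1.15). The 11 receptor genes with no ATG in the 5′UTR had a median of 0.63 (-1.33 to 1.14) with 1 strong and 2 weak, and the 26 with one a median of -0.69 (-1.0 to 0.05) with none strong and 6 weak. The counts over all genes were 626 strong and 275 weak of 4317 without an ATG, and 379 and 1026 of 6034 with one. The GABA receptor gene Gabra2, with 465 and 1619 reads (0.63), lay above and Gabra5, with 337 in either library (-0.93), below.

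**Figure D4:**
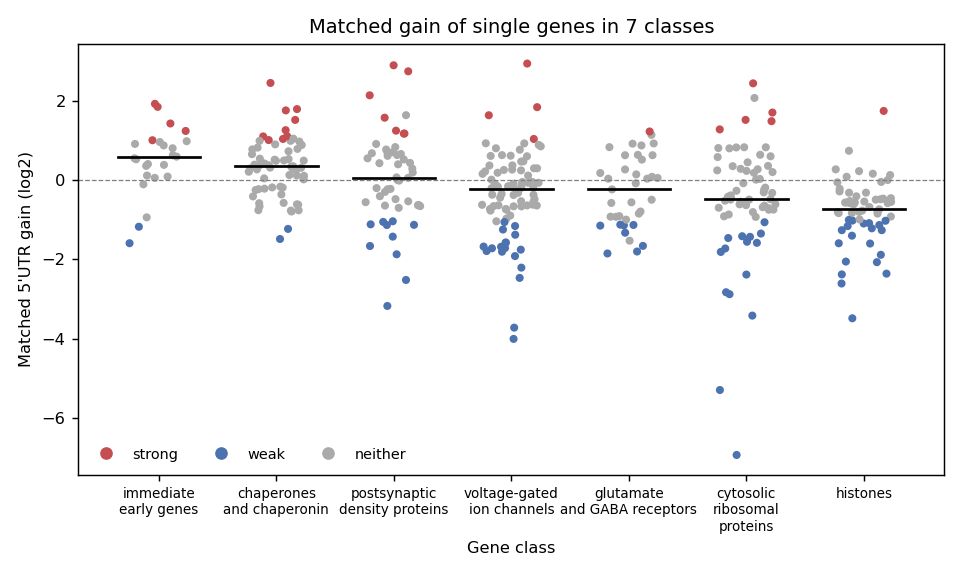
Each point is the matched 5′UTR gain (log2, vertical axis) of 1 gene in 7 gene classes (horizontal axis, points spread sideways for visibility), coloured by its call, with a black bar at the class median. Immediate early genes and chaperones lie mostly above 0 and histones mostly below, and every class holds genes on both sides.

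Other synaptic proteins were found at both ends of the range. Synaptic vesicle and active zone genes had a median of 0.08 (-0.20 to 0.34) over 58 of 75 genes, with 6 strong (10.3%) and 9 weak (15.5%), against 9.71% and 12.6% of all genes. Slc17a7, the vesicular glutamate transporter of cortical neurons, had 5 reads in WT and 98 in Harr (2.86), and Nsf, the ATPase that recycles SNAREs, had 38 and 624 (2.74). The liprin genes Ppfia2, with 732 and 440 reads (-1.95), and Ppfia4, with 275 and 139 (-1.74), were weak. Postsynaptic density genes had a median of 0.05 (-0.41 to 0.52) over 51 of 60 genes, with 7 strong (13.7%) and 10 weak (19.6%), both shares above those of all genes. Among its 31 members with at least 100 reads, no CDS overlap and few shared words, Cyfip2 and Nsf were the strongest. The weakest of these were the adhesion protein genes Lrrtm4, with 79 and 53 reads (-1.87), and Lrrtm3, with 141 and 65 (-1.67). The 15 postsynaptic genes without an upstream ATG had a median of 0.70 with 5 strong and none weak. The 36 with one had a median of -0.35 with 2 strong and 10 weak. Among all genes, 626 of 4317 without an upstream ATG were strong and 275 weak, and 379 and 1026 of 6034 with one.

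Housekeeping machines stayed near the matched level. Mitochondrial ribosomal proteins had a median of 0.00 (77 of 81 genes), translation factors -0.06 (58 of 64), nuclear-encoded subunits of oxidative phosphorylation -0.11 (73 of 79) and proteasome subunits -0.13 (44 of 50), each with an interval that included 0. Proteasome subunits had the smallest shares of calls among these, with 1 strong (2.27%) and 3 weak (6.82%), against 9.71% and 12.6% of all genes. The lowest was Psmc4 with 62 reads in WT and 69 in Harr (-1.23, or 0.18 relative to CDS reads). Atp5b, a subunit of ATP synthase, had 598 and 3274 reads (1.17), and Uqcrfs1, the Rieske protein of complex III, had 257 and 301 (-1.06, or 0.52 relative to CDS reads). Among initiation factors, Eif1ax had 352 and 1211 reads (0.57) and Eif4h 326 and 488 (-0.66). Mrps35 of the mitochondrial ribosome had 17 and 97 reads (1.18). Their CDS reads were lower in Harr than those of most genes, with median changes of -1.99 for oxidative phosphorylation, -1.58 for the proteasome and -1.21 for mitochondrial ribosomal proteins. Relative to the CDS, oxidative phosphorylation and the proteasome lay above matched genes, by 0.65 (0.53 to 1.00) and 0.47 (0.18 to 0.74), and mitochondrial ribosomal proteins had a median of 0.21 with an interval of -0.08 to 0.55.

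Cytosolic ribosomal proteins had a lower median, -0.47 (-0.63 to -0.08), over 68 of 84 genes, with 15 weak (22.1%) and 5 strong (7.35%), against 12.6% and 9.71% of all genes. These genes have many processed copies, and a median of 49.3% of their 25-nucleotide words occur in other genes, so that read placement is uncertain for most of them. Only 3 genes had at least 100 reads, no CDS overlap and fewer than 10% shared words. These were Rpl8, with 451 reads in WT and 1655 in Harr (0.64), Rack1, with 499 and 1542 (0.35), and Rps15a, with 102 and 170 (-0.55). With at least 100 reads per gene the class median was -0.017 (-0.58 to 0.58, 26 genes). When also matched on having an upstream ATG it was -0.26 (-0.53 to 0.08). The 34 members without an upstream ATG had a median of -0.03 (-0.65 to 0.58), and the 34 with one -0.53 (-0.81 to -0.31). Their CDS reads had a median change of -2.11, against -0.54 over all genes, and relative to CDS reads the class lay above matched genes, by 0.60. The side on which ribosomal proteins fell thus depended on whether 5′UTR reads were scaled by the library or by the CDS of the same mRNA. Rps27 (2456 and 46 reads, -6.94) and Rps15 (1510 and 90, -5.30), the lowest of the class, have 5′UTRs that overlap a CDS. They were named after their values were seen.

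Histone genes, most of whose mRNAs are made only in dividing cells and lack a poly(A) tail, had the second lowest median, -0.74 (-0.92 to -0.55, 59 of 64 genes), with 20 weak (33.9%) and 1 strong (1.69%), against 12.6% and 9.71% of all genes. No ATG was found in 78.0% of their 5′UTRs, against 41.7% over all genes. Shared words had a median of 51.5% in this class, and over the 7 genes with fewer than 10% the median was -0.32 (-0.90 to 1.73). Relative to CDS reads the class median was -0.12 (-0.28 to 0.29). The strong gene was H1f0, a replication-independent linker histone with a unique sequence, with 78 reads in WT and 592 in Harr (1.74). Astrocyte and radial glia genes had a median of -0.40 (-0.81 to -0.04, 22 genes) with 5 weak (22.7%), but a median of 0.05 (-0.44 to 1.17) relative to CDS reads. The summed CDS level of 4 astrocyte markers was lower in Harr, as were those of the neuronal, microglial and oligodendrocyte markers. CDS reads of the astrocyte and radial glia class had a median change of -1.53, against -0.54 over all genes. Drug treatment, fewer glia in the Harr dishes and less mRNA per glial cell cannot be told apart in pooled dishes. Their part in this result was not tested.

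Of 35 classes with genes both with and without an upstream ATG, 27 had the higher median without one and 8 did not. The 8 included histones (-0.84 without, -0.32 with), oxidative phosphorylation (-0.18 and 0.05), ATF4 targets (0.38 and 0.56), glycolytic enzymes (-0.56 and -0.32), mitochondrial carriers of the SLC25 family (-0.19 and 0.27) and cortical neuron transcription factors (-0.85 and -0.05). Zinc finger genes, the largest class, were among the 27. Over 328 of 447 genes the median was -0.05 (-0.15 to 0.01), with 32 strong (9.76%) and 44 weak (13.4%), close to the shares over all genes. The 93 zinc finger genes without an upstream ATG had a median of 0.49 (0.30 to 0.74) with 21 strong and 3 weak. The 235 with one had -0.27 (-0.44 to -0.13) with 11 strong and 41 weak. For comparison, 626 of all 4317 genes without an upstream ATG were strong and 275 weak, and 379 and 1026 of the 6034 with one. Zfp553, with 10 reads in WT and 92 in Harr (2.43), and Zbtb12, also with 10 and 92 (1.96), have none, and Zfp605, with 170 and 58 (-2.31), has 5, while Zfp35, with 130 and 42 (-2.69), has 6. Chromatin regulators were split alike. Their median was -0.05 over 103 genes, but 0.45 (0.15 to 0.71) for the 36 without an upstream ATG and -0.45 (-0.65 to -0.18) for the 67 with one. The DNA methyltransferase gene Dnmt3a was strong with 201 and 1108 reads (1.25), and Kat6a, a histone acetyltransferase gene with 9 upstream ATGs, was weak with 387 and 253 (-1.5).

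In all, 2 of 36 classes had a median interval above 0 and 7 one below 0, and the remaining 27 included 0. Besides the classes described, protocadherins and cadherins, adhesion proteins of which some label single neurons, lay below with -0.26 (-0.55 to -0.10) and 17 of 80 genes weak (21.2%). Of the 80 genes 49 share at least 10% of their words with other genes, and over the other 31 the median was -0.19 (-0.55 to 0.14). Their 5′UTRs had a median GC content of 47.8%, against 64.8% over all genes. Glycolytic enzymes had a median of -0.32 (-0.78 to -0.01, 17 genes), but of 0.057 (-0.42 to 0.68) relative to CDS reads and of -0.32 (-0.84 to 0.05) with at least 100 reads, 37.6% being the median share of words common with other genes. Among classes with a positive median whose interval included 0 were actin-binding proteins (0.31, but -0.14 when also matched on having an upstream ATG), tRNA synthetases (0.25), Rab GTPases (0.23), SLC25 carriers (0.19), matrix and stromal genes (0.19), nucleolar proteins (0.18) and COPI, COPII and SNARE proteins (0.16). The nucleolar class had 11 strong genes of 57 (19.3%) and 3 weak (5.26%), against 9.71% and 12.6% of all genes. Gars, glycyl-tRNA synthetase, had 33 reads in WT and 454 in Harr (2.48), Cfl2, an actin-severing cofilin, 45 and 512 (2.20), and Atp6v0a1, a subunit of the proton pump of vesicles, 160 and 2502 (2.55).

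**Figure D5:**
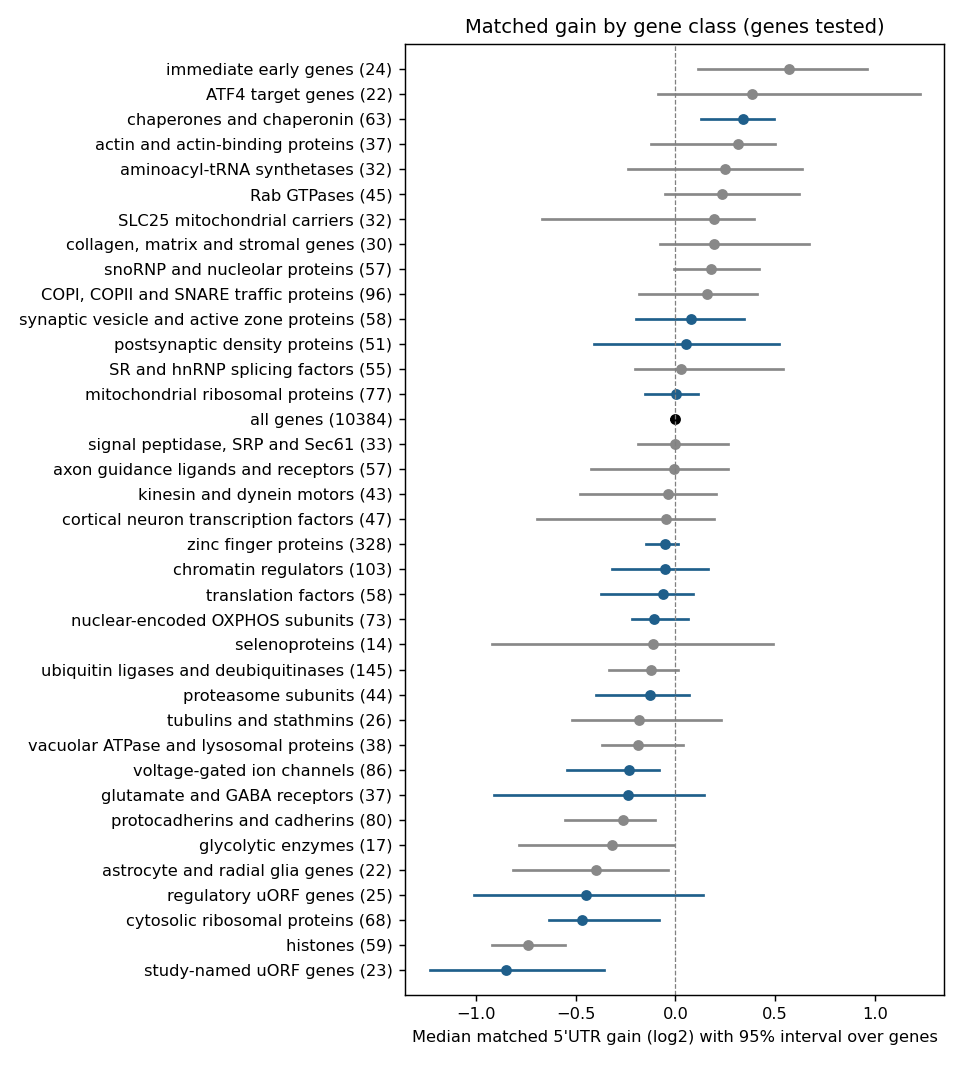
Median matched 5′UTR gain (log2, horizontal axis) of 36 gene classes and of all genes (black), with 95% intervals of the median over genes and the number of genes used in brackets, blue for the 14 main classes and grey for the others. Immediate early genes stand highest at 0.57, and the genes whose uORFs the study names lowest at -0.85.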

How the data were processed

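The authors deposited 3 tables per library, for 5′UTR, CDS and 3′UTR, written by Plastid. The deposited counts are whole, unnormalized reads per exon segment. Per the file headers, reads of 25 to 100 nucleotides were placed by their first base with an offset of 0, on mm10, once ribosomal reads and duplicates had been taken out. The study's methods name Rsubread for mapping before Plastid and TopHat for a separate search for open reading frames, and the headers do not say which alignment was counted.

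Segments were summed per transcript, and identifiers were joined to GENCODE M21 (mm10), where 99.4% of 142446 matched without their version. The longest transcript per gene was used. The 36 gene classes, from symbol patterns, and all cut-offs were chosen with earlier results of these data known. Counting intervals are normal 95% intervals on the log ratio of 2 counts and cover counting error only. They do not allow for PCR copies that may remain after the removal of duplicates, as copies are not independent molecules. A count of 0 allows up to 3 reads, which is 0.308 per 1000000 in Harr and 0.0993 in WT. Median intervals are from order statistics. Named genes were the 5 highest and 5 lowest of all genes and the 2 highest and 2 lowest of each main class (1 of each in the others) with at least 100 reads, no CDS overlap and under 10% of 25-nucleotide words shared with other genes. Some genes that this rule names are not reported here. Further members of the uORF, ATF4 target, immediate early, chaperone and receptor classes were named after their values were seen. Sequences are from GENCODE M21 transcripts. Python 3.11.15 with numpy 2.4.6, pandas 2.3.3 and scipy 1.17.1 was used, and 6 of 9 tables were read.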

Additional observations from a re-analysis of the deposited data

How the results depend on the processing

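No paired analysis was possible because each group has 1 library. The median gain of 2.59 was 2.53 when scaled by reads in the 3 regions, 3.14 by the median CDS ratio, 1.79 by mitochondrially encoded reads, 2.46 with a pseudocount of 5 and 2.64 without genes that overlap a CDS. With at least 100 reads per gene, 480 genes were strong and 598 weak, of 5238 genes in place of 10384. At that minimum the median of ribosomal proteins was -0.017 and of channels -0.074. Relative to CDS reads, matched also on CDS length, the medians were 0.60 for ribosomal proteins (reversed), 0.12 for translation factors, 0.65 for oxidative phosphorylation, 0.21 for mitochondrial ribosomes, 0.47 for the proteasome, -0.15 for zinc fingers and -0.35 for chromatin regulators, -0.31 for immediate early genes, 0.057 for glycolytic enzymes and 0.052 for astrocyte genes (the last 3 reversed), and -0.12 for histones, whose interval then included 0. Of the genes called strong or weak, this setting reversed Egr2 (-0.020), Fosb (-0.16), Jun (-0.47), Kcnj9 (0.20), Psmc4 (0.18) and Uqcrfs1 (0.52), and the transcript with most reads reversed Nr4a1 (3.03). Of genes called neither, the CDS-relative value changed sign for Arc (-0.51), Bdnf (-1.12), Fos (-0.38), Ppp1r15a (-1.17) and Rps15a (0.61) among those given values above, and the transcript with most reads for Asns (0.37) and Ppp1r15a (-0.66). Strata split also by upstream ATG, chosen after seeing the data, reversed Fosb (-0.061) and Cdh2 (-0.055) and moved actin-binding proteins to -0.14. Counts of genes under other scalings were also added after seeing the data. The cause was not tested. Other values of the main classes, 131 of 140, stayed inside their intervals. Depth limits genes near 10 reads, whose intervals span several log2 units.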

Other observations

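GC content went with the matched gain in these libraries. In 5 classes of the 9630 genes by GC content of the 5′UTR, the median matched gain was -0.22, -0.11, 0.05, 0.19 and 0.29 from the lowest class (up to 56.7% GC) to the highest (73.8% and above). Among genes without an upstream ATG the 5 medians were -0.05, 0.08, 0.23, 0.39 and 0.58. Of the 1149 such genes in the highest class 23.1% were strong, against 14.6% of all 4200 without an upstream ATG. The part of base composition in the recovery of fragments was not tested.

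The base at the third position before the annotated start codon made a smaller difference. The median matched gain was 0.09 for G (3774 genes), 0.01 for A (4630 genes), -0.07 for C (764 genes) and -0.22 for T (461 genes). The base after the ATG had medians between -0.03 and 0.04. A transcript start with C followed by 4 pyrimidines, the mark of mRNAs under control of mTOR, was annotated for 232 genes, with a median of 0.03 against 0.02 for the others. In 2528 genes with at least 10 reads both in the 5′UTR segment next to the start codon and in the upstream segments, the median change was 2.27 in the former and 2.60 in the latter. Rasd2, with 27 5′UTR reads in WT and none in Harr, was 1 of the 3 genes used that were at 0 in Harr.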
